A study of Mus musculus with 5 samples.

Results

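The genes Cdkn1a, Cdkn1b, Cdkn2b, Cdkn2c and Cdkn2d encode inhibitors of cyclin-dependent kinases. These 5 genes, of 22350 protein-coding genes annotated on the mouse autosomes and chromosome X, were chosen by name as the cell cycle inhibitors other than Cdkn2a. Their start sites and gene bodies were set against H3K27me3 peak lists of mouse embryonic fibroblasts (MEFs). All cells came from E13.5 embryo MEFs in which loxP sites flank exons of Eed, a subunit gene of Polycomb Repressive Complex 2 (PRC2). They were transduced with lentivirus for H3.3 K27R, H3.3 K27M or human EZHIP, from a vector with the EF1a promoter and puromycin selection. The peak lists of these 3 lines were used, with 1 library per line. Control cells and EED-null cells, for which the study excised EED with Cre, were not analysed here. Without replicates or read counts, depth was unknown, no difference could be tested, and all values describe these libraries. A site outside peaks was not called, which does not show that H3K27me3 was absent there.

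PRC2 trimethylates lysine 27 of histone H3, and the resulting H3K27me3 marks genes that are kept silent. H3.3 K27M, the histone mutant of diffuse midline glioma, and EZHIP, a protein of PFA ependymoma, both inhibit PRC2, while H3.3 K27R replaces the same lysine by arginine and served as the reference. Cyclin-dependent kinases drive cells from G1 into S phase by phosphorylating the retinoblastoma protein. The Cip/Kip inhibitors Cdkn1a (p21) and Cdkn1b (p27) bind cyclin and kinase together. The INK4 inhibitors Cdkn2b (p15), Cdkn2c (p18) and Cdkn2d (p19) bind the cyclin D-dependent kinases Cdk4 and Cdk6. In fibroblasts the INK4 locus on chromosome 4, with Cdkn2b beside Cdkn2a, is a textbook target of Polycomb silencing. The study examined this silencing at CDKN2A in human tumors, and the genes described here are other inhibitors of both families.

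No start site of the 5 genes lay in an H3K27me3 peak, in K27R, K27M or EZHIP cells. Cdkn1a was the only one of the 5 genes to touch a peak anywhere in its body, at its 3′ end in K27R cells. Cdkn1b lay in the widest peak-free surroundings of the 5 genes in all 3 lists. Cdkn2d lay nearest to a residual peak in K27M and EZHIP cells, yet outside it.

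The sequences before the start sites are shown because PRC2 is recruited to CpG islands, stretches rich in the CG dinucleotide, and the 5 genes differ in CG content there. Each line gives the 250 bases before a start site in the mm9 genome, 5′ to 3′ on the strand of the gene, with every CG in capitals. Cdkn1a has an upstream start, which is the 5′ end of the gene, and a main start 2793 bp further on. The windows are chr17:29230467-29230716 (plus strand) and chr17:29227674-29227923 (plus) for Cdkn1a, chr6:134870169-134870418 (plus) for Cdkn1b, chr4:88956942-88957191 (minus) for Cdkn2b, chr4:109339795-109340044 (minus) for Cdkn2c and chr9:21095654-21095903 (minus) for Cdkn2d.
Cdkn1a, main start: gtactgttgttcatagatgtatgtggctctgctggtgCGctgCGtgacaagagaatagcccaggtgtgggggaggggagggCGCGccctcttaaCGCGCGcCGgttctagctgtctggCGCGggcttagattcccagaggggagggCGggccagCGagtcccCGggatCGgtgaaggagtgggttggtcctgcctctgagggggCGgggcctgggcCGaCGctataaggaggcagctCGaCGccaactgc
Cdkn1a, upstream start: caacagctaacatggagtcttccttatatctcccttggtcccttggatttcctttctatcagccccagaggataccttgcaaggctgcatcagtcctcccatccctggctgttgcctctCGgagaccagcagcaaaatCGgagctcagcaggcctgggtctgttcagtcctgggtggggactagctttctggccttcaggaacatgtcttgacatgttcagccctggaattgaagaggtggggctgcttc
Cdkn1b: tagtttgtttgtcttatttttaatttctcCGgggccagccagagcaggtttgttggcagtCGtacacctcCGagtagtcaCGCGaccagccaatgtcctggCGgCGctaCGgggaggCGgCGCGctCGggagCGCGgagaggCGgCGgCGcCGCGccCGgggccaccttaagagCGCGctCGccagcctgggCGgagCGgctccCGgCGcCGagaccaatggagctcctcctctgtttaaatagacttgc
Cdkn2b: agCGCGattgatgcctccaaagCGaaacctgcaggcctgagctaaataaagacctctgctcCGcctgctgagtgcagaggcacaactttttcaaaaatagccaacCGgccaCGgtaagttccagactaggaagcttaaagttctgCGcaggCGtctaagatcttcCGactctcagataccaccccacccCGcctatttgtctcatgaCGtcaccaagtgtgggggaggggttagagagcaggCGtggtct
Cdkn2c: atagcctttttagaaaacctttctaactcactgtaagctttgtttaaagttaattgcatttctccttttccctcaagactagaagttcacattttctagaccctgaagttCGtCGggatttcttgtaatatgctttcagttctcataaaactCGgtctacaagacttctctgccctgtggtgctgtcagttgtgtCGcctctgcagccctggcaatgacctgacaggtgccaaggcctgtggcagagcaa
Cdkn2d: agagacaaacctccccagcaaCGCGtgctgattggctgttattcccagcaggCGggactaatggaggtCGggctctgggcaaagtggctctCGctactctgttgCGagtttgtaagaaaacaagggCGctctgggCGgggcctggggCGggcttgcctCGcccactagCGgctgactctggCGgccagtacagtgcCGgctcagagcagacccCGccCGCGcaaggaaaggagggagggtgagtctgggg

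Cdkn1b had the most CG before its start site, with 28 in 250 bases, a count that 8.4% of protein-coding promoters reached. The main start of Cdkn1a had 19, that of Cdkn2d 16 and that of Cdkn2b 12, against a median of 8 over 22345 promoters of the same length. Cdkn2c had 4 and the upstream start of Cdkn1a had 2. The letters TATAA, as in a TATA box, began 28 bases before the main start of Cdkn1a. Before the upstream start of Cdkn1a they were found 1 time, on the opposite strand. Searching both strands, they were present in 21.8% of promoters and in none of the windows of Cdkn1b, Cdkn2b, Cdkn2c and Cdkn2d. The letters GGGCGG, a GC box that itself contains a CG, were found 3 times at Cdkn2d, 2 times at the main start of Cdkn1a, 1 time at Cdkn1b and not in the windows of Cdkn2b, Cdkn2c and the upstream start of Cdkn1a, searching both strands. GGGCGG was present in 39.6% of promoters.

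A CpG island lay over the gene start of Cdkn1b (1339 bp long), Cdkn2b (433 bp) and Cdkn2d (828 bp). At Cdkn2c an island of 1496 bp began 16 bp after the gene start, and a RefSeq start 433 bp into the gene lay inside it. At Cdkn1a an island of 2112 bp covered the main start. All 5 genes thus had an island at an annotated or RefSeq start. At the gene start itself 3 of the 5 had one, against 46.0% of all protein-coding genes. With islands of at least 500 bp alone, 2 of the 5 had one there. The observed to expected CpG ratio of these islands ranged from 0.71 at Cdkn2d to 0.88 at Cdkn2b. No H3K27me3 peak covered any start: the 9 annotated transcripts of the 5 genes and the 7 RefSeq starts that were matched to mm9 by sequence all began outside the peaks of the 3 lists.

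**Figure D1:**
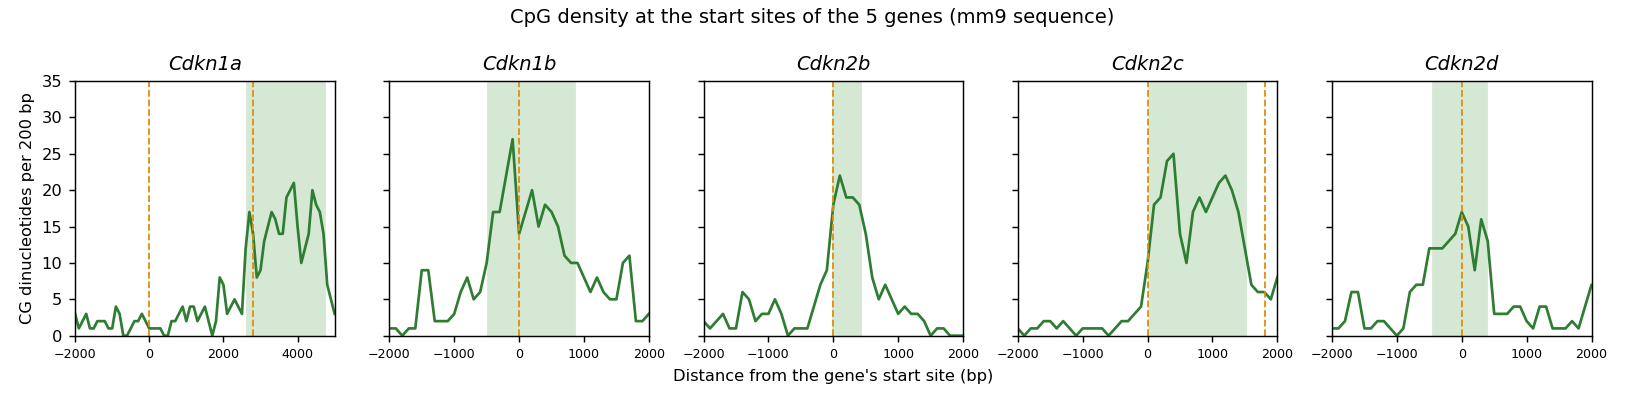
Number of CG dinucleotides per 200 bp (y axis) against distance from the gene start in bp (x axis) for the 5 genes. Green shading marks the CpG island and dashed lines the starts of annotated transcripts; the Cdkn1a island covers its main start 2793 bp into the gene, and the Cdkn2c island begins 16 bp after the gene start.

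The background for these counts was the share of all protein-coding genes with a start site in a peak, which was 30.1% in the K27R list. It was 9.02% for K27M, 7.73% for EZHIP, 30.2% for any of the lists and 6.60% for all 3 together. A count of 0 of 5 has an exact 95% interval of 0 to 52.2%, which includes all 3 of these shares, so that 5 genes cannot show a lower rate. Genes with an island at the gene start, as at Cdkn1b, Cdkn2b and Cdkn2d, lay in K27R peaks in 23.1% of cases, in K27M peaks in 12.1% and in EZHIP peaks in 10.2%. Genes without one there, as Cdkn1a and Cdkn2c, were at 36.1%, 6.42% and 5.65%. The 5 genes also had no peak within 5000 bp of a gene start, while 38.2% of protein-coding genes had one in K27R, 11.4% in K27M and 11.2% in EZHIP.

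**Figure D2:**
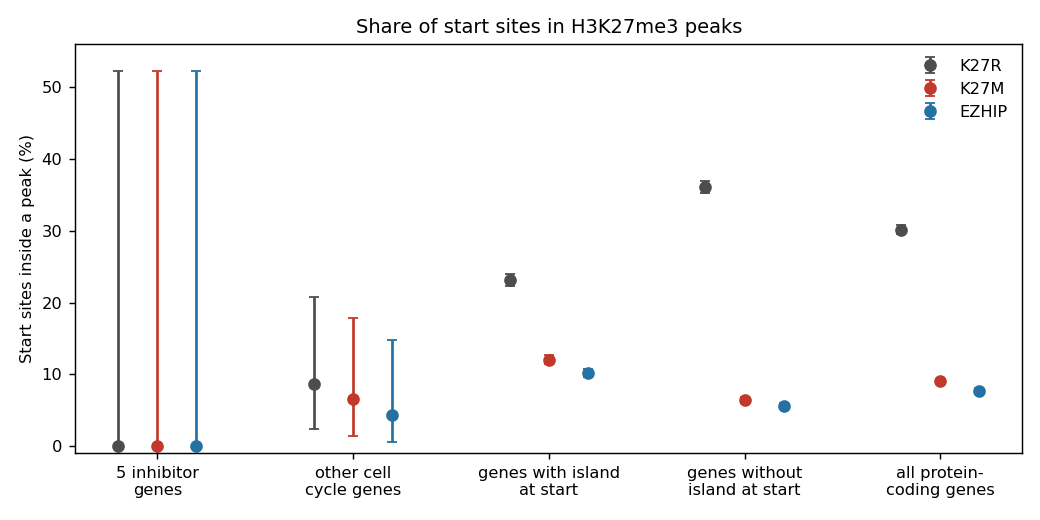
Percent of start sites inside a peak (y axis) for the 5 inhibitor genes, 46 other cell cycle genes and classes of protein-coding genes, with exact 95% intervals as bars, for each list of 1 library. All 3 values of the 5 genes are 0 with intervals up to 52.2%, and the K27R share of the 46 genes is 8.70% against 30.1% of all genes. The intervals cover counting error over genes only.

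Cdkn1a, a gene that p53 induces after DNA damage, lies on chromosome 17 from 29227924 to 29237667 on the plus strand (ENSMUSG00000023067.7). Its nearest K27R region spanned 29.4 kb, from 29236801 to 29266200, and began 8.9 kb after the gene start and 6.1 kb after the main start. The region covered the last 867 bp of the gene (8.9% of its length), all of it in the 3′ UTR of the last exon of the main transcript and none in coding sequence. This overlap amounts to 4 whole bins of 200 bp, and 2.95% of the region lay in the gene. The start of a short transcript, 7228 bp into the gene, lay 1.6 kb from it. Of the 5 gene bodies, 1 touched a K27R peak, against 36.1% of all protein-coding genes. None of the 5 touched a K27M or EZHIP peak, against 11.5% and 10.6%.

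Neither inhibitor list had a peak in that K27R region at the 3′ end of Cdkn1a. The nearest K27M peak lay 143.1 kb from the gene start and the nearest EZHIP peak 143.9 kb. Both lay over the start site of Cpne5, a copine gene. The EZHIP peak of 6.0 kb (29371801 to 29377800) lay wholly inside the K27M peak of 9.8 kb (29371001 to 29380800), and both lay inside a K27R region of 84.0 kb. On the other side, the first EZHIP peak, 2.4 kb wide, lay 320.1 kb away over the start of Mapk13, which encodes a p38 kinase, and had no K27M counterpart. Of the 7 K27R regions within 500 kb of the Cdkn1a start, a K27M peak was present in 1 and an EZHIP peak in 2.

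Cdkn1b, whose product restrains cyclin E-Cdk2 in resting cells, lies on chromosome 6 from 134870419 to 134875531 on the plus strand (ENSMUSG00000003031.8). No list had a peak in the 200 kb centered on its start. The nearest K27R peak lay 480.6 kb away, downstream and past Emp1, and the next on the other side 493.4 kb away over the start of Bcl2l14. In K27M the nearest peak lay 2327.4 kb away over the start of Ptpro, and in EZHIP 1739.0 kb away over the start of Plbd1. The peak at Plbd1 was 2.2 kb wide, and with peaks of at least 5000 bp alone the nearest EZHIP peak to Cdkn1b lay 7378.6 kb away. In K27R, 5.23% of protein-coding genes were at least as far from a peak as Cdkn1b. The shares were 5.62% in K27M and 10.4% in EZHIP.

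The stretch without K27M peaks around Cdkn1b reached over 9473.8 kb, the 20th longest of 3716 spaces between K27M peaks, whose median was 137.4 kb. In EZHIP it reached over 9068.0 kb, the 28th longest of 4972. The interval free of both, from 127724001 to 136609400, was 8885.4 kb long and held 0% unsequenced bases. It was not free of H3K27me3 peaks in K27R cells, which had 40 regions wholly inside it. Together with the regions that crossed its ends, K27R peaks covered 18.1% of the interval, against 22.1% of all chromosomes analysed. The interval held the start sites of 125 protein-coding genes, 26 of them in K27R peaks and 22 of them at a CpG island. None of the starts with an island was in a K27R peak, so that all 26 marked genes lacked one. Over all protein-coding genes, 30.1% of starts, 23.1% of those with an island and 36.1% of those without lay in K27R peaks. The interval was chosen to hold no K27M or EZHIP peak, so that starts in such peaks could not be among them. Of the 26 marked genes, 17 were lectin-like receptor genes of the Klr and Clec families, such as Klrb1c and Clec2i, which are known from natural killer and myeloid cells. They made up 17 of the 37 Klr and Clec starts there, while 0 of 24 starts of the bitter taste receptor genes Tas2r lay in K27R peaks.

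**Figure D3:**
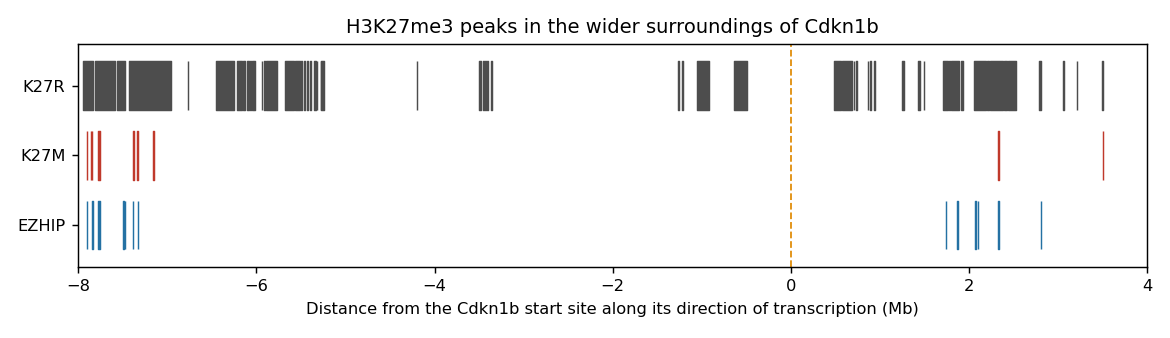
Peaks of each list, 1 library each, drawn as bars against distance from the Cdkn1b start site in Mb, with negative values upstream. K27R regions occur on both sides, while no K27M peak lies between 7146.4 kb upstream and 2327.4 kb downstream and no EZHIP peak between 7329.0 kb upstream and 1739.0 kb downstream.

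Cdkn2b, a target of TGF-beta signaling, lies on chromosome 4 from 88952198 to 88956941 on the minus strand (ENSMUSG00000073802.4), 11.6 kb from Cdkn2a. The start sites of Cdkn2b and Cdkn2a lay in the same peak-free space in each list. In K27R this space was 715.4 kb long and held 5 start sites, those of 4930553M12Rik, Ifne, Mtap, Cdkn2a and Cdkn2b. The interval of 872.6 kb around Cdkn2b that was free of both inhibitor lists held 5.87% unsequenced bases, to which no read aligns. The lists hold no read counts, so that lack of the mark around Cdkn2b and Cdkn2a cannot be told apart from lack of reads. The nearest K27R peak to the Cdkn2b start lay 269.1 kb upstream and was 52.4 kb wide. At least this distance was found for 10.2% of protein-coding genes. Farther upstream lay a region of 10.6 kb, 337.1 kb from the start, and then a region of 123.8 kb over Dmrta1, a DM domain transcription factor gene. Downstream the first K27R region, 446.3 kb away and 56.6 kb wide, held the starts of 6 interferon alpha genes.

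The nearest peaks of the inhibitor lists lay on opposite flanks of Cdkn2b. The nearest K27M peak, 397.7 kb upstream, was 1.6 kb wide and lay within the Dmrta1 gene body, where no EZHIP peak was present. The nearest EZHIP peak, 474.9 kb downstream, was 1.8 kb wide and lay over the start of Ifna5, where no K27M peak was present. Of the 4 K27R regions within 500 kb, 1 held a K27M peak, another 1 an EZHIP peak and 0 held both. These peaks were narrower than 5 kb, and with peaks of at least 5000 bp alone the nearest K27M peak lay 2078.9 kb and the nearest EZHIP peak 614.7 kb away.

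Cdkn2c lies on chromosome 4 from 109333481 to 109339794 on the minus strand (ENSMUSG00000028551.8), next to Faf1, a Fas-associated factor gene. These were the 2 protein-coding starts in a K27R-free space of 419.6 kb. The nearest K27R peak was a region of 5.2 kb, 117.4 kb downstream, without a residual peak in either inhibitor list. The nearest residual peaks lay upstream over the start of Dmrta2, another DM domain gene, at 301.8 kb for K27M and at 304.6 kb for EZHIP. There the K27R region spanned 109.4 kb with 4 CpG islands, the K27M peak 31.6 kb (109641601 to 109673200) and the EZHIP peak 24.8 kb (109644401 to 109669200), which lay inside the K27M peak. Of the 5 K27R regions within 500 kb, this was the 1 that held a residual peak in either list.

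Cdkn2d lies on chromosome 9 from 21092907 to 21095653 on the minus strand (ENSMUSG00000066860.6), in a gene-dense stretch with 36 protein-coding starts in 1000 kb. Its nearest peak in all 3 lists lay downstream over the start of S1pr5, a sphingosine-1-phosphate receptor gene. The distance was 34.7 kb to the K27R region, 38.7 kb to the K27M peak and 42.1 kb to the EZHIP peak. At S1pr5 the K27R region spanned 15.0 kb (21046001 to 21061000), the K27M peak 12.0 kb (21045001 to 21057000) and the EZHIP peak 7.0 kb (21046601 to 21053600). The K27M peak reached past the outer edge of the K27R region, and 11.0 kb of it lay inside. In K27M, 78.5% of protein-coding genes were at least as far from a peak as Cdkn2d, and in EZHIP 76.9%. The 3 K27R regions within 500 kb all held a K27M peak, and 1 held an EZHIP peak. The other two lay over Icam1, Icam4 and Icam5, which encode cell adhesion molecules, and near Rdh8, a retinol dehydrogenase gene.

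**Figure D4:**
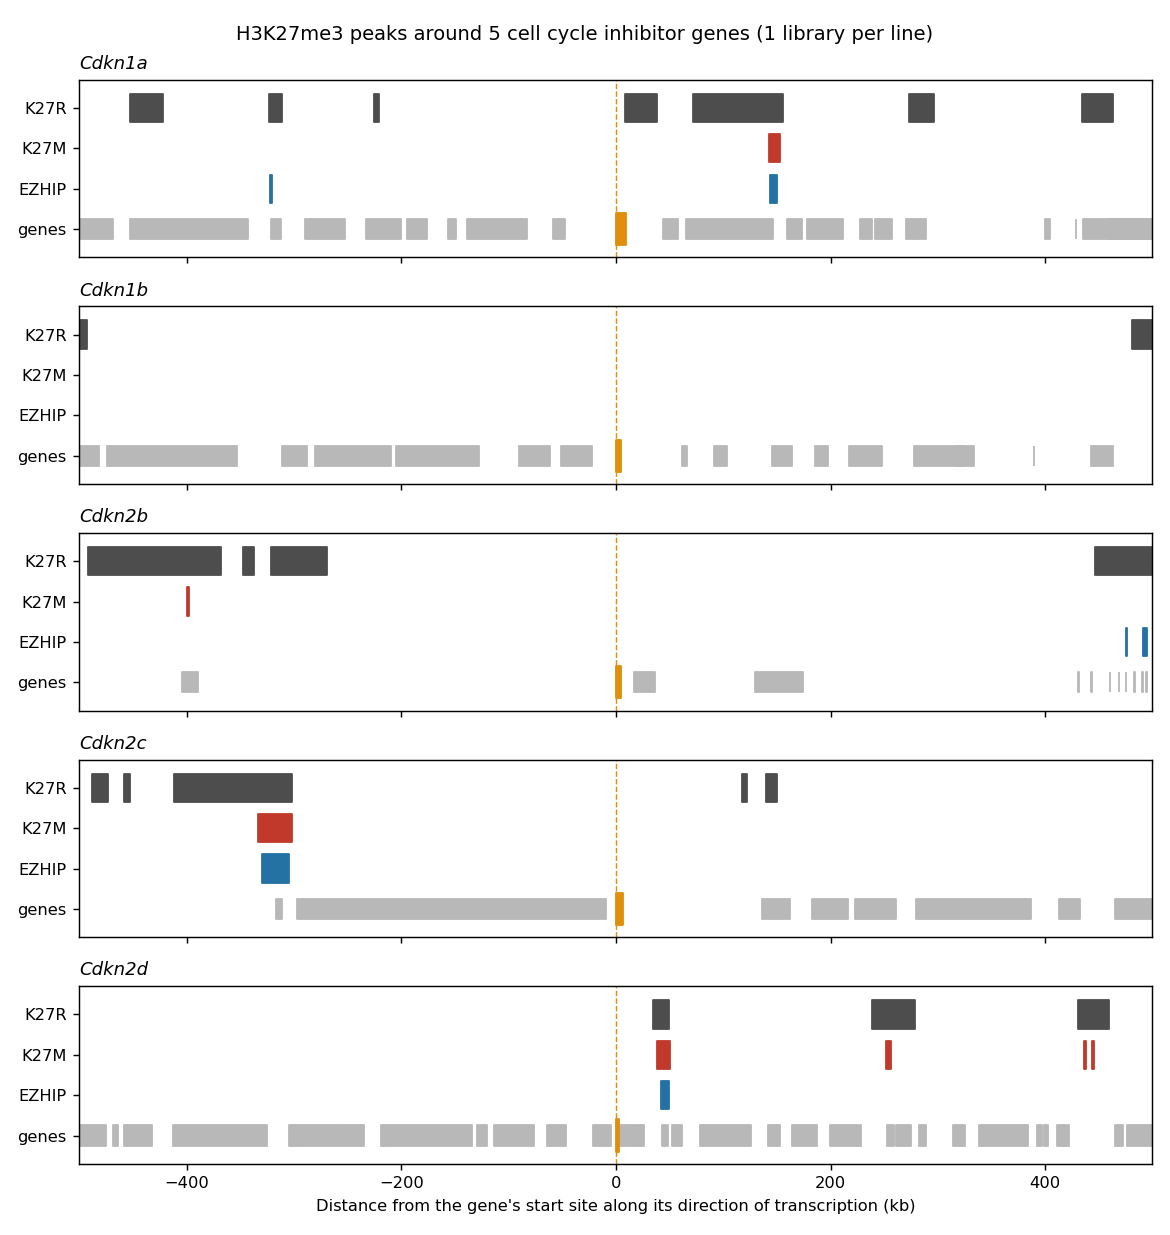
Peaks of K27R, K27M and EZHIP (1 library each) and protein-coding gene bodies, drawn as bars against distance in kb from the start site of each of the 5 genes along its direction of transcription. The gene itself is in orange on the dashed line, which no peak crosses; the K27R region that begins 8.9 kb after the Cdkn1a start is the nearest.

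The order of the 5 genes by distance to the nearest K27R peak was Cdkn1a (8.9 kb), Cdkn2d (34.7 kb), Cdkn2c (117.4 kb), Cdkn2b (269.1 kb) and Cdkn1b (480.6 kb). In K27M and in EZHIP, Cdkn2d came before Cdkn1a and the other genes kept that order. The median over the 5 genes was 117.4 kb for K27R peaks, 301.8 kb for K27M peaks and 304.6 kb for EZHIP peaks. Over all protein-coding genes, with genes inside peaks counted as 0, the medians were 19.8, 206.9 and 196.1 kb. Among genes with a start site outside peaks they were 53.0, 252.9 and 233.3 kb. Both inhibitor lists lay farther than K27R from each of the 5 genes. For Cdkn1a the K27M distance was 16.1 times the K27R distance, for Cdkn1b 4.84 times, for Cdkn2c 2.57 times, for Cdkn2b 1.48 times and for Cdkn2d 1.12 times. Peaks were also fewer in these lists, with 12845 in K27R, 3736 in K27M and 4992 in EZHIP.

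**Figure D5:**
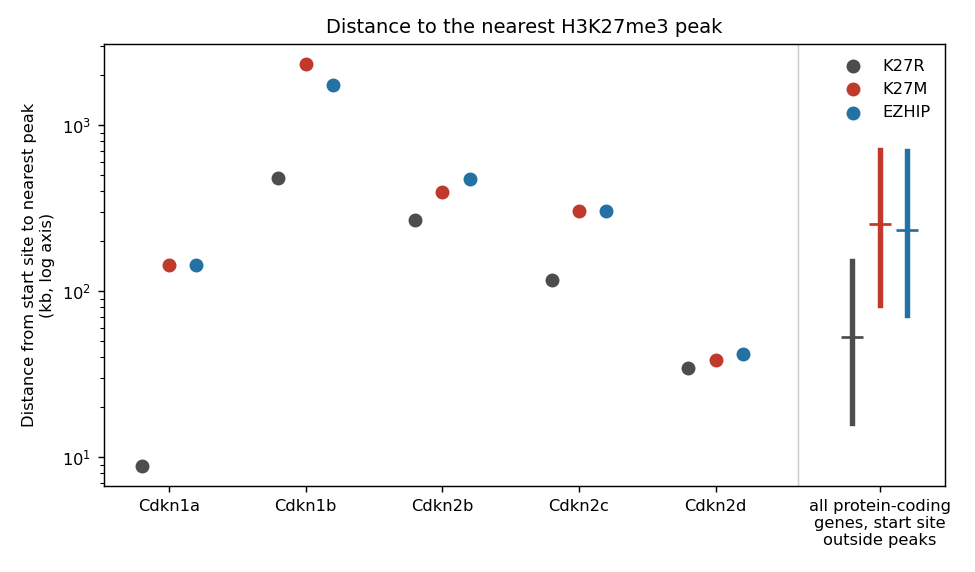
Distance from the start site to the nearest peak in kb (log axis) for the 5 genes in each list of 1 library. Bars at the right span the quartiles and ticks the median of all protein-coding genes whose start site is outside peaks. Cdkn1b in each list and Cdkn2b in K27R (269.1 kb) are above the bar. Cdkn1a in K27R (8.9 kb) and Cdkn2d in K27M (38.7 kb) and EZHIP (42.1 kb) are below it.

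Local peak cover differed between the 5 genes. In the 200 kb centered on the start site, K27R peaks covered 28.96% at Cdkn1a, 7.5% at Cdkn2d and 0% at Cdkn1b, Cdkn2b and Cdkn2c, against 22.1% of all chromosomes analysed. An empty window of this size in K27R was found for 24.1% of protein-coding genes. K27M and EZHIP peaks were present in this window at Cdkn2d, where they covered 6.0% and 3.5%, and were absent at the other 4 genes, as they were for 64.9% and 63.8% of all genes. In the 1000 kb windows, K27R cover ranged from 2.6% at Cdkn1b to 24.05% at Cdkn2b. These windows touched 21 K27R regions in all, of which 6 held a K27M peak (28.6%, exact 95% interval 11.3 to 52.2%) and 5 an EZHIP peak (23.8%, 8.22 to 47.2%). Of all 12845 K27R regions, 16.5% held a K27M peak and 16.97% an EZHIP peak, shares within those intervals. The intervals cover counting error only.

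Of 46 other genes of the cell cycle, its checkpoints and its regulators, 4 had a start site in a K27R peak (8.70%, exact 95% interval 2.42 to 20.8%, against 30.1% of all genes). In K27M 3 of 46 did (6.52%, 1.37 to 17.9%, against 9.02%) and in EZHIP 2 of 46 (4.35%, 0.531 to 14.8%, against 7.73%). These intervals cover counting error over genes only, within 1 library per line. The 46 genes were listed with earlier results of these data known, so that the intervals are not a test of a lower rate. With a peak allowed within 5000 bp of the start site, the count was 9 of 46 in K27R (against 38.2% of all genes), 5 in K27M (against 11.4%) and 2 in EZHIP (against 11.2%). The list holds 38 genes with an island at the start, and 3 of these 38 lay in K27R peaks (7.89%, interval 1.66 to 21.4%, against 23.1% of all genes with an island). Ccnd2, which encodes cyclin D2, and Ccna1, which encodes the germline cyclin A1, had start sites in peaks of all 3 lists. Cdk6 was in K27R and K27M peaks and 563.1 kb from an EZHIP peak. Cdk4 was in a K27R region of 47.4 kb that covered the whole gene, and outside both inhibitor lists by 2.8 kb in K27M and 9.4 kb in EZHIP. Cdk4 and Cdk6 are the kinases that the INK4 proteins bind.

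At Ccnd2 a K27R region of 225.2 kb (127061601 to 127286800 on chromosome 6) stood against a peak of 15.6 kb in K27M and one of 13.6 kb in EZHIP over the start site. At Ccna1 the K27R region spanned 278.8 kb, the K27M peak 13.4 kb and the EZHIP peak 9.0 kb. The Cdk6 start lay in a K27R region of 14.8 kb and a K27M peak of 5.0 kb. Ccnd3, the cyclin D3 gene, had 33.8 kb of its body in a K27R peak, and its start lay outside peaks in all 3 lists. Cdkn3, which encodes a phosphatase that acts on Cdk2, lay 635.0 kb from a K27R peak. Cdkn1c (p57), the remaining Cip/Kip gene, and Ccnd1 lie in the last 7.73 Mb of chromosome 7, where no list had a peak. On the other chromosomes K27R peaks reached to within 1.66 Mb of the end, and the cause of the empty end was not tested. Without Cdkn1c and Ccnd1 the K27R share was 9.09% of 44 genes.

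By likeness of the 3 distances on a log10 scale, over 3 lists, E2f1 was closest to Cdkn2c (118.4 kb to K27R, 359.8 kb to K27M and 359.4 kb to EZHIP peaks), followed by E2f2. The Euclidean distances of these pairs were 0.105 for E2f1 and 0.283 for E2f2. Closest to Cdkn2b were Wee1 (0.167) and Zbtb17 (0.211), and to Cdkn2d Ccnd3 (0.305) and E2f8 (0.38). Matches were looser for Cdkn1a, with Ccng2 (0.416) and E2f7 (0.422), and for Cdkn1b, with Myc (0.362) and Gadd45a (0.579). Gadd45a lay 141.6 kb from a K27R peak, against 480.6 kb for Cdkn1b. Some gene is always closest, so that being closest does not by itself mean a like pattern.

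The label of the cells was checked against marker genes, of which those used by a cell type are usually free of H3K27me3. Of 9 fibroblast markers, 8 had a start site outside peaks in every list, and Pdgfra was in a peak in all 3. The neural genes Sox2, Olig2 and Neurog2 were in peaks in all 3 lists. In K27R, start sites of 2 of 4 epithelial, 2 of 3 endothelial, 1 of 3 skeletal muscle and 0 of 3 blood markers were in peaks. Over all protein-coding genes 30.1% of start sites were in K27R peaks, so that a start site outside peaks is common. The blood markers were outside peaks too, so that these few markers cannot tell fibroblasts from blood cells.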

How the data were processed

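H3K27me3 chromatin immunoprecipitation was followed by sequencing (ChIP-Seq) of MNase-digested chromatin. By the study's methods, the authors aligned reads with bowtie1 (version 1.0.0 in the submitters' processing notes) to mm9 and to a second species for scaling, and called broad peaks with MOSAiCS-HMM. Whether scaling entered the calls is not given in the sources used here. The deposited files list peak start and end positions, which are whole bins of 200 bp, and no score, p-value or count. Depth was therefore unknown.

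Peaks were compared with the mm9 sequence (NCBIM37) and GENCODE vM1. The start site was the 5′ end of the gene, and an overlap of 1 bp counted. CpG islands were found by a running score of 17 for CG and -1 for other bases, and segments over 200 bp were kept if G+C was 50% or more and the CpG ratio (observed to expected) over 0.6 (27075 islands). RefSeq starts (GRCm38.p6) of all 5 genes were placed by matching their sequences to mm9. Scripts used Python 3.11.15 with scipy 1.17.1, pandas 2.3.3 and numpy 2.4.6, and the interval and island tools were tested on simulated data. Alternatives were minimum peak widths, merging of peaks, other start sites, a distance of 5000 bp, a covered share of 50%, windows of 1000 kb and islands of at least 500 bp.

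The genes and lists were chosen with earlier results of these data known. Named genes are the 5 members and Cdkn2a, the genes at their flanking peaks, cell cycle genes with a start site in a peak, and for each member the 2 cell cycle genes of most like distances (Euclidean, on log10 of the distance plus 200 bp). Other genes named were chosen after their values were seen: Ccnd3, Cdkn1c, Ccnd1, Cdkn3, Klrb1c, Clec2i, and the genes of regions within 500 kb.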

Additional observations from a re-analysis of the deposited data

How the results depend on the processing

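The count of 0 member start sites in peaks was the same in each list with peaks of at least 2000 or 5000 bp. It was also the same after merging of peaks up to 10000 bp apart and with a peak allowed within 5000 bp. None of these settings could raise the count. Minimum widths only remove peaks, and the others were settled by distances of at least 8.9 kb and peak-free spaces of at least 229.6 kb. Other start sites could have changed it. The count stayed 0 with the start of any annotated transcript and with RefSeq starts, a setting chosen after seeing the data. Of 109 alternative values, those that could not change included, 90 were unchanged or, for counts, within 1.5 times, 19 moved and 0 reversed. With at least 50% of the gene to be covered, the count of genes overlapping K27R fell from 1 to 0. With a peak within 5000 bp, the cell cycle genes numbered 9 in K27R and 5 in K27M. With peaks of at least 5000 bp, the nearest peak lay 7378.6 kb away for Cdkn1b in EZHIP, 2078.9 kb for Cdkn2b in K27M and 614.7 kb for Cdkn2b in EZHIP. In windows of 1000 kb, cover in K27R, K27M and EZHIP was 21.28, 0.98 and 0.84% at Cdkn1a, 24.05, 0.16 and 0.58% at Cdkn2b, 14.5, 3.16 and 2.48% at Cdkn2c, and 8.42, 2.08 and 0.7% at Cdkn2d, and K27R covered 2.6% at Cdkn1b. The lists give no scores, so that a stricter score could not be applied. Minimum widths were used in its place, but they remove narrow peaks whatever their strength. Whether width follows score could not be tested, so that the distances with wide peaks alone are not those of a stricter score. No paired analysis was possible because each line had 1 library.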

Other observations

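A K27R region lay over the whole of Cdk4, the catalytic partner of the D-type cyclins, which is used by most dividing cells. The gene, 4.4 kb long with a CpG island at its start site, sat in a region of 47.4 kb from 126483601 to 126531000 on chromosome 10 (mm9). No peak of the inhibitor lists touched the gene. A K27M peak 2.8 kb and an EZHIP peak 9.4 kb from its start site nevertheless reached into the same K27R region. Cdk4 was singled out after its values were seen, and the lists hold no read counts, so that the level of H3K27me3 there is unknown.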
